A study of Mus musculus with 15 samples.

Results

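Small nucleolar RNAs (snoRNAs) and small Cajal body RNAs (scaRNAs) left fragments in all 15 small RNA libraries of a mouse mammary tumour model, and these fragments are described here. A fragment was counted as a member when its whole sequence, in the sense direction, lay inside a GENCODE M21 transcript of biotype snoRNA or scaRNA and inside no miRNA hairpin, ribosomal RNA or mitochondrial transcript. By this rule 6353 of 627951 distinct inserts were members, with 91042 of 6892924 reads. They came from 433 of 1558 annotated genes, and genes sharing most of their reads (near-identical copies) were joined, which gave 256 features, called genes from here on. The libraries fell into 5 groups with 3 libraries each. MM3MG is a BALB/c normal mammary epithelial line. MM3MG-Her2 is the same line after transduction with retroviral particles carrying pLSXN-Neu, and the labels do not say whether it is a clone. TUBO is a tumour line from a Balb-NeuT mouse, a strain with an activated rat neu transgene under the mouse mammary tumour virus promoter, and the libraries of TUBO cells were joined by libraries of exosomes, taken from the medium of TUBO cultures, and of the supernatant left after the exosomes were removed. All cultures were in DMEM with 10% FCS and no treatment was given. The labels give replicate numbers but no separate cultures, so every p-value measures only the spread between these libraries, which may be technical.

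SnoRNAs are stable non-coding RNAs of the nucleolus, most of them cut out of introns of host genes, many of which encode ribosomal proteins or are non-coding RNAs such as Gas5 and Snhg1. Those with C and D boxes (mouse symbols starting with Snord) guide 2′-O-methylation, and those with H and ACA boxes (Snora) guide pseudouridylation, mainly of ribosomal RNA. ScaRNAs (Scarna) guide the same modifications of spliceosomal RNAs in Cajal bodies, and a few snoRNAs, U3 (Rnu3 genes) foremost, are needed for cleavage of the ribosomal RNA precursor. Shorter fragments of mature snoRNAs are a regular part of small RNA libraries and are found in cells and in extracellular fluids. The libraries were cut from a gel at the size of miRNA inserts, and the inserts in the files were 18 to 75 bases long, so intact snoRNAs were not measured and every value below is of fragments.

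By name, 77 Snord genes held 44468 reads (48.8% of the member reads), 37 Snora genes held 1704 reads (1.87%) and 8 Scarna genes held 160 reads (0.176%). The other 134 genes have symbols that name no class, such as Gm23212 or Rnu3b1, and held 49.1% of the reads. By sequence, 116 genes had a C and a D box and held 83.0% of the reads, 73 fitted the H/ACA form (2.47%), and in 67 neither was found (14.5%). Genes lying only in an intron numbered 117 (29.5% of the reads), 121 overlapped an exon of some transcript of their host (68.2%), and 18 were intergenic or antisense to their neighbours (2.23%). Because of the exon overlap, 32.0% to 70.7% of a library's member reads also matched a longer RNA and could have come from it.

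Libraries held 196152 to 710902 reads, of which 703 to 16994 were member reads, fewest in the supernatant. Reads that matched no annotated transcript made up 30.1% to 34.8% in MM3MG and TUBO cells, 48.3% to 52.3% in MM3MG-Her2, 38.5% to 42.6% in exosomes and 64.4% to 69.0% in supernatant. Of 5 hairpins of the epithelial miR-200 family, 4 were read in MM3MG (6.22 to 19.8 RPM, reads per 1000000 of all reads) and 4 in MM3MG-Her2 (6.31 to 17.6 RPM), against 16512 to 17198 RPM in TUBO cells. Hairpins of the mesenchymal miR-199 and miR-214 families summed to 34813 to 62705 RPM in MM3MG and 17547 to 19045 RPM in MM3MG-Her2, and to 26 to 148 RPM in TUBO cells, so the epithelial label of the MM3MG lines is not borne out by these markers. All 5 blood cell hairpins (Mir451a, Mir486, Mir144, Mir223, Mir142) were read in exosomes (3315 to 6926 RPM), and in TUBO cells Mir451a, Mir144 and Mir223 were at 0 (36.2 to 52.0 RPM for the list). The part of any of these differences in the results below was not tested.

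The genes on which the results turn are printed here 5′ to 3′, in DNA letters of GRCm38 with the GENCODE M21 gene models, so that the fragment can be seen in its gene. Capitals mark the leading fragment, the insert with the most reads, pooled over the 9 cell libraries unless exosomes or supernatant are named. They are Gm23212 (chr1:161036682-161036741, + strand) and Gm25789 (chr1:161038308-161038383, + strand), both inside Gas5, and Gm25855 (chr19:8723993-8724064, + strand) inside Snhg1. Snord57 lies in Nop56 (chr2:130278016-130278087, + strand), Snord14d in Hspa8 (chr9:40803995-40804080, + strand) and Snord53 in an intron of Wdr43 (chr17:71640879-71640956, + strand). Gm25854 is intergenic (chr12:109686798-109686869, + strand), and the U3 gene Rnu3b1 (chr11:87443237-87443452, + strand) lies in an intron of Tex14 and stands for 19 joined U3 genes and copies.
Gm23212: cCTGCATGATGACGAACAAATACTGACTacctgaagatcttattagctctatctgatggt
Gm25789: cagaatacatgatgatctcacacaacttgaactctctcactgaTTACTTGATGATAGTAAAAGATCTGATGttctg
Gm25855: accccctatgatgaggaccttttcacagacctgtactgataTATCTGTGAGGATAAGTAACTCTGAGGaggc
Snord57 with the leading fragment of cells: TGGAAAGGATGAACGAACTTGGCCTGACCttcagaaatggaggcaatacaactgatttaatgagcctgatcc
Snord57 with the leading fragment of exosomes: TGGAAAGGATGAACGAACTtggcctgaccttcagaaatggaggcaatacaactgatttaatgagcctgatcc
Snord14d with the leading fragment of cells: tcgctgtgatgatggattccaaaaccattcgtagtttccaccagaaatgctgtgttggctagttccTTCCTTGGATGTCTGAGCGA
Snord14d with the leading fragment of exosomes: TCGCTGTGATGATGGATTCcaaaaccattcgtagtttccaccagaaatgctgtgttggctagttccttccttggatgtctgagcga
Snord53 with the leading fragment of exosomes: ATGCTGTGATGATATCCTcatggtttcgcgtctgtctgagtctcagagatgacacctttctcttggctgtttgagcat
Gm25854: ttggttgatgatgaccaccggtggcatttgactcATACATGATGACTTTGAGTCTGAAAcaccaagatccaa
U3 (Rnu3b1) with the leading fragment of cells: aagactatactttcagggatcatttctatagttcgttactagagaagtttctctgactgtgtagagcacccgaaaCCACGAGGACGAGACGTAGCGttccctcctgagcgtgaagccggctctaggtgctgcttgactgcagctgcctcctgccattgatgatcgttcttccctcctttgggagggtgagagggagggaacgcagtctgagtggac
U3 (Rnu3b1) with the leading fragment of supernatant: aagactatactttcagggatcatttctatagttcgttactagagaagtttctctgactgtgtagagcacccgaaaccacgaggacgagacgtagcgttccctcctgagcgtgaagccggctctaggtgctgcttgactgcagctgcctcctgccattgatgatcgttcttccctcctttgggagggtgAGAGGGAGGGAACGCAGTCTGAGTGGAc
In Gm23212 the leading fragment held the C box side of the gene (bases 2 to 28) and 48.2% of the gene's reads in cells. In Gm25789 (bases 44 to 71) and Gm25855 (bases 42 to 68) it held the D box side, with 71.5% and 62.9% of the reads. In Snord14d it moved from bases 67 to 86 in cells to bases 1 to 19 in exosomes, and in U3 from bases 76 to 96 in cells to bases 189 to 215 in supernatant.

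Fragments of snoRNAs and scaRNAs made up the largest part of all reads in MM3MG, about the same smaller part in MM3MG-Her2 and TUBO cells, and the least in exosomes. Their share of all reads was 2.98%, 2.64% and 2.18% in the MM3MG libraries (2.60% ± 0.401, SD, n = 3). It was 1.41%, 1.58% and 1.35% in MM3MG-Her2 (1.44% ± 0.117) and 1.42%, 1.30% and 1.49% in TUBO cells (1.41% ± 0.0943). The MM3MG libraries were all above the other cell libraries, and MM3MG-Her2 and TUBO cells overlapped. Exosomes held 0.198%, 0.260% and 0.230% (0.229% ± 0.0313), and supernatant 0.392%, 0.689% and 0.257% (0.446% ± 0.221). Every extracellular library was below every cell library, and exosomes and supernatant overlapped. Over the 5 groups the share differed (exact permutation of the Kruskal-Wallis statistic over 1401400 divisions of the libraries, two-sided p = 8.49e-05, Benjamini-Hochberg adjusted over 7 such tests 0.000297). Out of only the reads that match an annotated transcript, MM3MG stayed highest. Every MM3MG-Her2 library was then above every library of TUBO cells, and every supernatant library above every exosome library. Supernatant replicate 2 (1351 of 68562 such reads) was also above TUBO cells replicate 2 (6855 of 366911).

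For single pairs of groups no exact permutation test of 3 libraries against 3 can go below p = 0.1, and after adjustment over 6 pairs none passed. The mean share was 1.80 times higher in MM3MG than in MM3MG-Her2 and 1.85 times higher than in TUBO cells, and it was 6.13 times higher in TUBO cells than in exosomes and 3.15 times higher than in supernatant, each with no overlap (exact permutation p = 0.1, adjusted 0.15). TUBO cells against MM3MG-Her2 gave a ratio of 0.973 (exact permutation p = 0.7, adjusted 0.7), and exosomes against supernatant 0.514 (exact permutation p = 0.2, adjusted 0.24). Without U3 the latter ratio turned to 1.13. These are shares of a library and not amounts: fewer cells or vesicles and less RNA in each cannot be told apart in bulk samples. The reads carry no molecular identifiers, so PCR copies count as separate reads, and intervals and floors given below cover counting error only.

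In the 3 classes the mean share was highest in MM3MG and lower in both fractions of the medium than in any cell group. Snord genes took 1.31% ± 0.115 of all MM3MG reads, 0.642% ± 0.0576 for MM3MG-Her2, 0.686% ± 0.0767 for TUBO cells, 0.146% ± 0.0197 for exosomes and 0.161% ± 0.0501 for supernatant (SD, n = 3 each). Snora genes took 0.0535% ± 0.0242, 0.0276% ± 0.00406, 0.0208% ± 0.00161, 0.00891% ± 0.00122 and 0.00637% ± 0.00189 in the same order. Both classes differed over the 5 groups (exact permutation, adjusted p = 0.000683 for Snord and 2.5e-05 for Snora), as did Scarna, with the highest mean in MM3MG (0.00356%) and the lowest in supernatant (0.000778%) on 160 reads in all (exact permutation, adjusted p = 0.00311). No Scarna gene had enough reads for a test of its own. In Snora the 3 cell groups did not overlap, and exosomes and supernatant did. Supernatant had a higher mean than exosomes in Snord and in the total, and a lower one in Snora and Scarna.

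**Figure D1:**
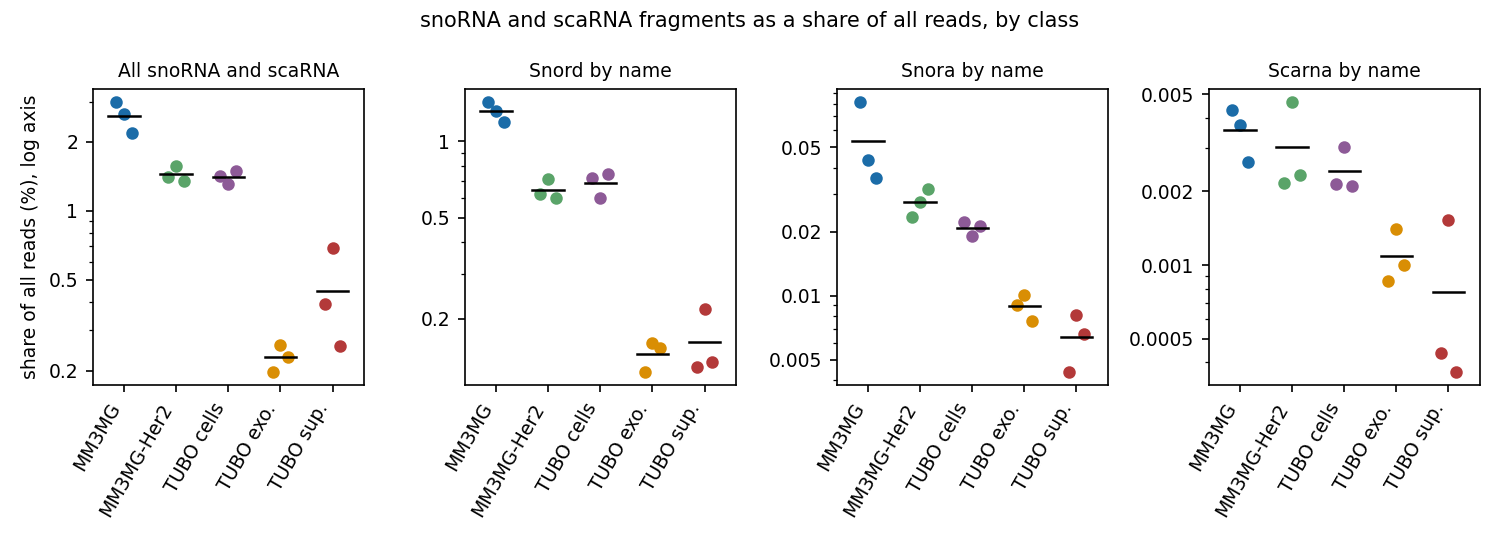
Share of all reads (%, log axis) held by snoRNA and scaRNA fragments, in all and by class, for each of the 15 libraries (points), with group means (bars). The 3 MM3MG libraries lie between 2.18% and 2.98% in the total, above every other library, and the 6 extracellular libraries lie below all cell libraries.

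One library decided part of the Snora value. Snora62, an H/ACA snoRNA in an intron of the ribosomal protein gene Rpsa, was at 412, 34.2 and 24.2 RPM in the MM3MG libraries, so replicate 1 stood far above the others. In all cell libraries 92.2% of its reads were 1 insert of 18 bases, bases 2 to 19 of the gene. Without Snora62 the Snora genes summed to 405, 406 and 339 RPM in MM3MG (383 ± 38.0), 256 ± 34.1 in MM3MG-Her2 and 191 ± 8.64 in TUBO cells (SD, n = 3 each), so MM3MG stayed highest. Snora62 itself did not pass the test in either comparison with MM3MG (edgeR quasi-likelihood, Benjamini-Hochberg adjusted p = 0.088 and 0.058).

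The number of genes behind these shares shrank from cells to medium. A library held reads of 202 genes on average for MM3MG, 179 for MM3MG-Her2, 178 for TUBO cells, 123 for exosomes and 51.7 for supernatant, a count that also follows the number of reads. The gene with the most reads took 9.90% of the member reads for MM3MG, 21% for MM3MG-Her2, 11.5% for TUBO cells, 20.02% for exosomes and 54.2% for supernatant. That gene was Gm23212 in MM3MG-Her2 and TUBO cells, Snord14d in exosomes and U3 in supernatant, and in MM3MG it was Gm25855 in replicates 1 and 2 and Snord99 in replicate 3. The 3 leading genes together took 24.2%, 32.3%, 23.9%, 37.8% and 84.2% in the same order.

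By host, 9 genes inside Gas5 held 14023 reads and 8 inside Snhg1 held 11800 reads. Gas5, a non-coding host gene whose spliced RNA is degraded during translation, summed to 3269 ± 654 RPM in MM3MG, 3559 ± 224 in MM3MG-Her2 and 2295 ± 38.3 in TUBO cells. Snhg1 summed to 4516 ± 1484, 1107 ± 74.7 and 1736 ± 106 RPM in the same order (SD, n = 3 each). Thus the Gas5 sum in MM3MG-Her2 was near that of MM3MG, while the Snhg1 sum was lower in every MM3MG-Her2 library. The Gas5 sum in MM3MG-Her2 was mostly 1 gene, Gm23212. Of the 9 genes inside Gas5, 1 rose and 6 fell there against MM3MG, next to rises in 14.8% and falls in 51.2% of all features tested. The 51 genes inside ribosomal protein genes summed to 5744 ± 1072 RPM in MM3MG, 3272 ± 301 in MM3MG-Her2 and 3651 ± 394 in TUBO cells. In exosomes the 3 sums were 85.5 ± 33.6 for Gas5, 134 ± 32.4 for Snhg1 and 355 ± 88.3 RPM for the ribosomal protein genes, and in supernatant 29.4 ± 6.96, 44.3 ± 37.1 and 128 ± 70.2. Reads were not divided by gene length, so levels are compared between groups, not between genes.

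**Figure D2:**
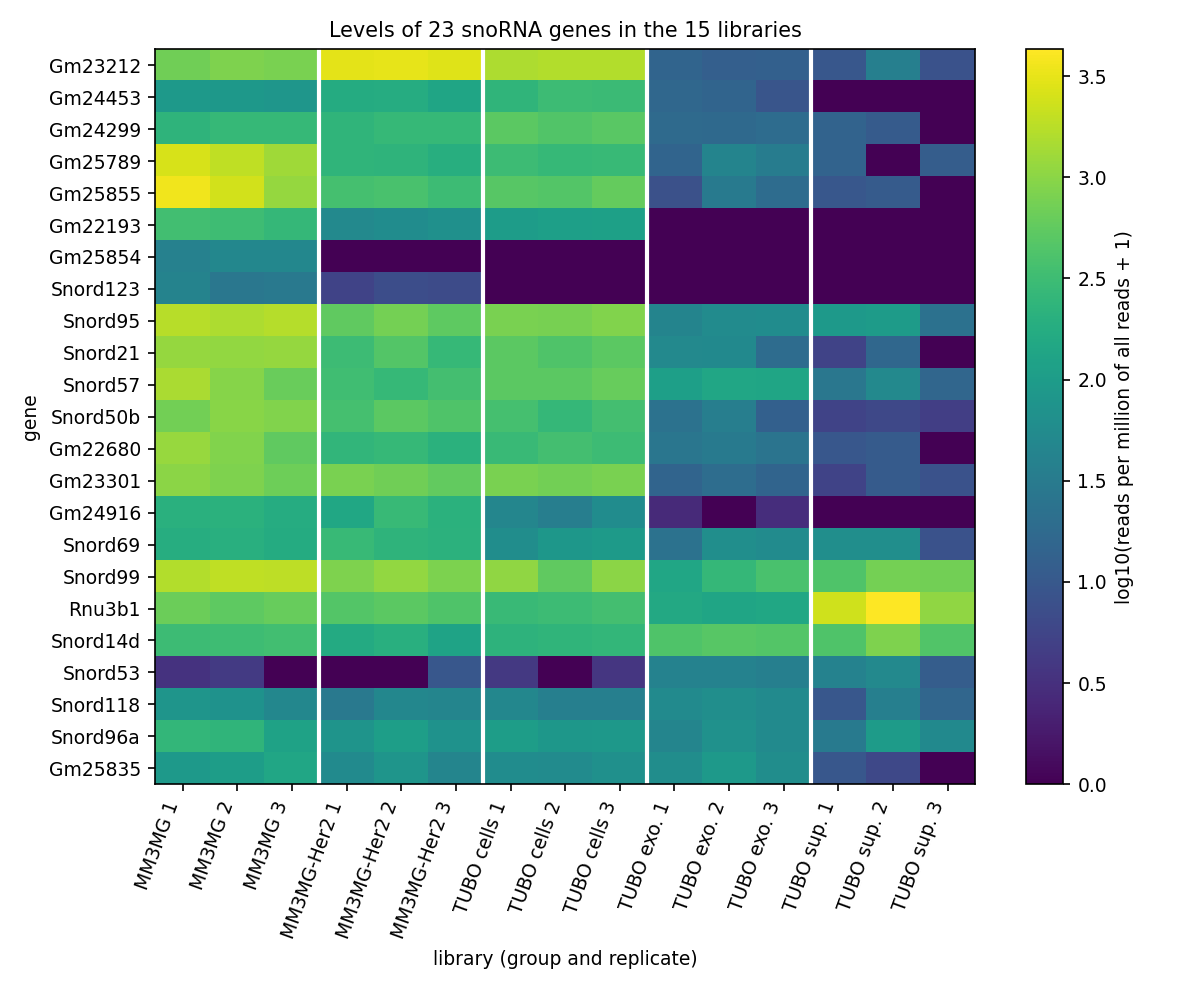
RPM of 23 snoRNA genes (log10 of the value plus 1, colour) in each of the 15 libraries, ordered by group. The cell libraries are filled for nearly all genes, and in the supernatant U3 (2556 RPM on average), Snord99 (625 RPM) and Snord14d (574 RPM) stand out.

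The first comparison asked what the Her2/neu construct goes with in the same line. Most snoRNA genes that passed the test were lower in MM3MG-Her2 than in MM3MG, and 3 were higher. Of 256 genes, 101 had enough reads to be tested, and 63 passed (edgeR quasi-likelihood test, Benjamini-Hochberg adjusted over all 371 features of the table, threshold 0.05), 3 rising and 60 falling. Of all 371 features 66.0% passed, so 63 of 101 is near the background; 51.2% of them fell and 14.8% rose. The median log2 difference was −0.88 over the 101 genes and −0.72 over all 371 features, so the members lay close to the general shift. TMM scaling moved the median of all features to −0.38, with 5 members rising and 41 falling, and RLE scaling moved it to −0.14, with 12 rising and 34 falling. A gene entered the test when 3 of the 9 cell libraries held at least 21 RPM of it. For 15 of the 101 members only MM3MG brought this about, so they could hardly be called but as falls (13 were), and the same held for 48 of all 371 features. Among the 85 members that depended on neither group 3 rose and 47 fell.

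Of the 3 rises, 1 lay in Gas5 and 1 in Snhg1, and most of their neighbours fell. Gm23212 was at 709, 856 and 796 RPM in MM3MG and at 3027, 3189 and 2858 RPM in MM3MG-Her2, a rise of 1.94 ± 0.13 on the log2 scale (SE, edgeR adjusted p = 4.3e-09). All MM3MG-Her2 libraries were far above all MM3MG libraries. Gm25789, which lies in the same host, was at 2610, 1904 and 1303 RPM in MM3MG and at 238, 231 and 191 RPM in MM3MG-Her2 (−3.13 ± 0.23, edgeR adjusted p = 1.2e-08). Here the order was the opposite, again with no overlap. Of the 9 genes inside Gas5, 1 rose, 6 fell and 2 did not pass, next to falls in 51.2% and rises in 14.8% of all features. Gm23212 alone took 3.09% of the member reads in MM3MG and 21% in MM3MG-Her2.

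Snhg1 gave the same kind of split. Gm24453 was at 88.6, 85.5 and 79.4 RPM in MM3MG and at 168, 174 and 138 RPM in MM3MG-Her2, a rise of 0.93 ± 0.18 (SE, log2, edgeR adjusted p = 0.0004). Its neighbour Gm25855 was at 3554, 2406 and 1133 RPM in MM3MG, a wide spread, and at 361, 391 and 311 RPM in MM3MG-Her2 (−2.73 ± 0.38, edgeR adjusted p = 0.00019). The libraries did not overlap in either gene. Gm24452 and Gm22680, also in Snhg1, fell by 2.21 and 1.83 on the log2 scale, and Snord22, a snoRNA needed for ribosomal RNA processing, from 160 to 74.4 RPM. Of 7 tested genes inside Snhg1, 1 rose and 6 fell, next to rises in 14.8% and falls in 51.2% of all features. The third rise, Snord93 (197 RPM to 317 RPM, log2 0.71, edgeR adjusted p = 0.039), lay outside both hosts and rested on overlapping libraries.

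Among the other falls, Gm22193, in the splicing factor gene Sf3b3, went from 307 RPM in MM3MG to 57.0 RPM in MM3MG-Her2 (log2 −2.44). Snord21 in Rpl5 went from 1132 to 347 RPM (log2 −1.70), Snord57 in Nop56, which encodes a core protein of the C/D particle itself, from 1022 to 316 RPM (log2 −1.69), and Snord95 in Rack1 from 1653 to 617 RPM (log2 −1.42). In each of these 4 genes every MM3MG-Her2 library lay below every MM3MG library. Less abundant genes, which entered the test through MM3MG alone and are given as values, were Snord71 (32.3 in MM3MG and 4.08 RPM in MM3MG-Her2), Snord87 (32.3 and 4.33 RPM), Snord123 in Snhg18 (31.9 and 5.50 RPM), Snora41 (39.9 and 6.77 RPM) and Gm23297 in Nap1l4 (29 and 4.76 RPM). The log2 difference of Snord87, −2.97, was −2.35 without MM3MG-Her2 replicate 1 and −3.79 without replicate 3, and that of Gm23297, −2.61, was −1.99 without replicate 1 and −3.46 without replicate 2. U3 was at 604 and 470 RPM, a log2 difference of −0.36 ± 0.15 (SE, edgeR adjusted p = 0.049). This log2 difference turned to 0.22 with RLE scaling and 0.11 with DESeq2, so its direction depends on the scaling. The call was also lost without MM3MG replicate 1 (log2 −0.29), MM3MG replicate 3 (log2 −0.35), MM3MG-Her2 replicate 1 (log2 −0.32) or MM3MG-Her2 replicate 3 (log2 −0.31), and with the replicate block (log2 −0.36). Gm23301 in Rpl17 (843 and 684 RPM, edgeR adjusted p = 0.14) did not pass.

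A cluster of neighbouring snoRNA genes on chromosome 12, chosen after its values were seen, was read in MM3MG and hardly elsewhere. Its 10 genes lie between AF357425 and Gm25854 (chr12:109636012-109686869), 5 of them inside Rian, a non-coding RNA of an imprinted region that is expressed from the maternal allele. They summed to 148 reads in MM3MG (103, 103 and 86.0 RPM), 1 read in MM3MG-Her2 and 0 in the 9 TUBO libraries. Against a floor of 3 reads over the group, this is at least 61.6-fold higher in MM3MG than in TUBO cells. Gm25854 held 67 of the reads, at 38.3, 46.6 and 46.3 RPM, and was at 0 in the other 12 libraries, which makes it at least 18.9-fold higher in MM3MG than in MM3MG-Her2 and at least 27.9-fold higher than in TUBO cells. AF357428 (40 reads) and AF357341 (13 reads) followed.

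TUBO cells against MM3MG set a tumour line against a normal line, with the same MM3MG libraries as above, so both comparisons share their controls. Again most members that passed were lower: 71 of 101 passed (edgeR quasi-likelihood, Benjamini-Hochberg), 5 rising and 66 falling, against 74.1% of all 371 features. Of all features 46.6% fell and 27.5% rose. The median log2 difference was −1.02 over the members and −0.50 over all features. With the member reads alone as library size 18 rose and 24 fell. Of the 101 members 18 entered the test through MM3MG alone, and 15 of these fell.

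The 5 rises were Gm24453, Gm23212, Gm26247, Gm24299 and Snord78. Gm24453 in Snhg1 was at 240, 308 and 302 RPM in TUBO cells against the 79.4 to 88.6 RPM of MM3MG (log2 1.74 ± 0.17, SE, edgeR adjusted p = 2.4e-07), and here the line of TUBO cells was also above MM3MG-Her2 (log2 0.81). Gm23212 in Gas5 was at 1554, 1660 and 1630 RPM, above MM3MG (log2 1.03 ± 0.12, edgeR adjusted p = 1.9e-06) and below MM3MG-Her2 (log2 −0.91). Its 3 cell groups thus did not overlap with each other. Gm24299, in Taf1d, which encodes a subunit of the RNA polymerase I promoter factor, was at 259 RPM in MM3MG, 260 in MM3MG-Her2 and 487 in TUBO cells (log2 0.91 against each). Gm26247 was at 37.2, 43.3 and 75.9 RPM and Snord78, in Gas5, at 114, 116 and 161 RPM in the same order. The call of Snord78 (log2 0.49) was lost without MM3MG replicate 3 (log2 0.39) or TUBO cells replicate 1 (log2 0.46) and with no filter on low counts.

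Gm25789 and Gm25855 fell in both lines, and the values stand side by side here, since both comparisons share the MM3MG libraries. Gm25789 was at 310, 266 and 279 RPM in TUBO cells (log2 −2.76 ± 0.22 against MM3MG, SE, edgeR adjusted p = 1.7e-08), next to −3.13 in MM3MG-Her2. Gm25855 was at 483, 457 and 587 RPM (log2 −2.21 ± 0.36, edgeR adjusted p = 0.00046), next to −2.73. Both genes lay in MM3MG above every library of both other lines. Snord99 in Snhg12 was at 1609, 1929 and 1882 RPM in MM3MG, 864, 1106 and 833 RPM in MM3MG-Her2 and 1061, 550 and 986 RPM in TUBO cells, and fell in both (log2 −0.95 and −1.06). The call in MM3MG-Her2 was lost with DESeq2 (log2 −0.48) and RLE scaling (log2 −0.37). U3 was at 292, 306 and 349 RPM in TUBO cells and fell by 0.93 on the log2 scale (edgeR adjusted p = 4.9e-05).

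Other falls belonged to TUBO cells, as their test against MM3MG-Her2 also shows. In that comparison 32 of 101 members passed (edgeR quasi-likelihood, Benjamini-Hochberg), 18 rising and 14 falling, against 57.4% of all 371 features, of which 32.3% rose and 25.1% fell. The median was 0.07 over the members and 0.19 over all features; with TMM scaling 11 members rose and 18 fell, with RLE 8 and 19, so the balance of directions rests on the scaling. All 3 tested genes inside Gnl3, the host gene that encodes nucleostemin, were lower in TUBO cells than in either MM3MG line. Gm24916 was at 201, 208 and 179 RPM in MM3MG, 145, 275 and 211 RPM in MM3MG-Her2 and 45.9, 34.3 and 57.7 RPM in TUBO cells (log2 −2.07 ± 0.25 and −2.17 ± 0.25, SE, edgeR adjusted p = 2.3e-06 and 1.9e-06). Snord69 followed with 181, 242 and 78.7 RPM (log2 −1.20 and −1.62) and Snord19 with 75, 53.6 and 20.3 RPM (log2 −1.88 and −1.39). No TUBO library reached the lowest library of either MM3MG line in these genes.

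Gm25788, an H/ACA gene in Pabpc4, was at 43.5, 31.1 and 6.84 RPM in MM3MG, MM3MG-Her2 and TUBO cells (log2 −2.14 between the last pair). Snord123 had no read in TUBO cells, which is at least 19.6-fold lower than in MM3MG. Snord93 was at 99.4, 110 and 128 RPM in TUBO cells (log2 −1.49 against MM3MG-Her2), and Snord42a in Rpl23a at 116, 114 and 118 RPM (log2 −1.03). Of the genes that were higher in TUBO cells than in MM3MG-Her2, Snora7a in Rpl32 was at 64.2, 47.6 and 45.0 RPM against 13, 21 and 5.86 RPM (log2 1.89 ± 0.38, SE, edgeR adjusted p = 0.00045). It was at 50.9 RPM in MM3MG, near its level in TUBO cells. Snora41 (log2 1.71), Gm22193 (log2 0.94), Gm24452 (log2 0.90) and Snord22 (log2 0.83) were also lowest in MM3MG-Her2, but highest in MM3MG, where Gm22193 was at 307 RPM against 109 RPM in TUBO cells. With DESeq2 the calls of Snora41 (log2 1.51) and Gm22193 (log2 0.74) were lost. Gm25894 and Gm23246, both in Snhg1, and Snord2 in the translation factor gene Eif4a2 had log2 differences of 0.90, 0.86 and 0.88, calls that were lost with DESeq2 (0.70, 0.65 and 0.67). The call of Snord2 was also lost without MM3MG-Her2 replicate 1 or 3 or TUBO cells replicate 1 or 3 (log2 0.73 to 0.89), and that of Gm23246 without MM3MG-Her2 replicate 2 or 3 or TUBO cells replicate 3 (log2 0.64 to 0.80). Of the genes lower in TUBO cells, Snord45c in Rabggtb was at 47.1 RPM against 107 RPM in MM3MG-Her2 (log2 −1.19), and Gm23130 in Rps12 at 22.4 against 65.5 RPM (log2 −1.54), a call lost without MM3MG-Her2 replicate 2 (log2 −0.83). Of the 7 tested genes inside Snhg1, 5 were higher in TUBO cells than in MM3MG-Her2 and none lower. Of all features 32.3% were higher and 25.1% lower.

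Exosomes held far fewer snoRNA fragments among their reads than the cells they came from. Of 256 genes 72 could be tested in the libraries derived from TUBO, and 60 passed (edgeR quasi-likelihood, Benjamini-Hochberg over 352 features), 2 rising and 58 falling, or 83.3%, against 64.2% of all features. The libraries of cells and exosomes did not overlap in 64 members and in 76.7% of all features. Of all features 43.5% fell and 20.7% rose. The median log2 difference was −3.69 over the members and −0.58 over all features. TMM scaling gave −3.12 and −0.02. These counts and medians depend on which genes entered the test: 54 of the 72 members reached its minimum (20.1 RPM in 3 of the 9 libraries) through TUBO cells alone, against 89 of all 352 features, and 51 of the 54 fell. They are therefore a description, and the sum over all 256 members, given above as the share of all reads, does not depend on that choice. Among the 15 members that depended on neither group 1 rose and 7 fell. With the member reads alone as library size, which asks how the genes share those reads, 12 rose and 18 fell.

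Gm23212, the leading gene of TUBO cells, was nearly gone. Gm23212 went from 1554, 1660 and 1630 RPM in TUBO cells to 13.7, 11.7 and 12 RPM in exosomes (log2 −6.98 ± 0.41, SE). Gm23301, in an intron of Rpl17, went from 806, 723 and 807 RPM to 13.7, 18.7 and 14 RPM (log2 −5.64 ± 0.33). Snord110, a neighbour of Snord57 in Nop56, went from 292, 339 and 301 RPM to 0, 9.34 and 2.01 RPM (log2 −6.42 ± 0.58). Gm23212 and Gm23301 entered the test through TUBO cells alone, so their values are given without a p. No exosome library of Snord110 reached the minimum for the test, so it too is given without a p. The exosome libraries were far below the cell libraries in all 3 genes. For Snord110, on 5 exosome reads, the log2 difference was −8.02 without exosome replicate 2 and −5.76 without replicate 1. Of the leading Snhg1 genes Gm25855 (log2 −4.83) and Gm24453 (log2 −4.47) fell, while Gm25789 in Gas5 (log2 −3.31) and Gm22680 in Snhg1 (log2 −3.55) fell less than the median member. Gm22193 and Gm24837 had no read in exosomes, which puts the former at least 54.9-fold and the latter at least 36.8-fold lower there. Snord78, with 2 reads in exosomes, was 122 times higher in cells (95% counting interval 33.4 to 1011), and Snord42a, with 2 reads, 87.9 times (24 to 730). Snord80 in Gas5, with 1 read, was 110 times higher in cells (19.5 to 4387), and Gm22879 in Rpl7a had none, at least 15.2-fold lower. Of the tested genes, 7 of 8 inside Gas5, 6 of 7 inside Snhg1 and 16 of 18 inside ribosomal protein genes fell, and none rose. These counts stand next to falls in 43.5% and rises in 20.7% of all features, with the limit on entry to the test given above.

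Of the 72 tested genes 2 passed as rises in exosomes, and of these Snord14d was higher by the test. The other, Snord53, could hardly be called but as a rise, for the reason given below. Snord14d, one of the U14 genes in the chaperone gene Hspa8 and needed for cleavage of the ribosomal RNA precursor, was at 223, 236 and 253 RPM in TUBO cells and at 427, 483 and 457 RPM in exosomes. All exosome libraries were above all cell libraries, and the difference was 0.94 ± 0.29 on the log2 scale (SE, edgeR adjusted p = 0.0096, and 0.094 with no filter on low counts). It made up 20.02% of the member reads of exosomes. Snord53, in Wdr43, which encodes a factor of small subunit assembly, was at 3.06, 0 and 2.81 RPM in cells (4 reads) and at 39.4, 39.7 and 36.1 RPM in exosomes (58 reads). It entered the test through the exosome libraries alone, so its values are given without a p. In exosomes 96.6% of its reads were 1 insert, bases 1 to 18. Gm25835 in Eif4a1 (59.3 and 69.6 RPM, edgeR adjusted p = 0.58), Snord118, the U8 snoRNA (40.05 and 56 RPM, edgeR adjusted p = 0.24), and Snord96a (90.7 and 55.5 RPM, edgeR adjusted p = 0.088) did not pass.

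Snord57 and Snord99 fell less than the median member. Snord57 went from 515, 518 and 615 RPM to 110, 140 and 136 RPM (log2 −2.09 ± 0.30, SE, edgeR adjusted p = 1.3e-05), and Snord99 from 1061, 550 and 986 RPM to 142, 261 and 385 RPM (log2 −1.72 ± 0.37, edgeR adjusted p = 0.0007). U3 went from 316 ± 29.5 to 145 ± 10.4 RPM (log2 −1.12 ± 0.39, edgeR adjusted p = 0.018), and this call was lost with TMM (log2 −0.54) and RLE scaling (log2 −0.78). With member reads alone as library size these 3 genes had the opposite sign, 0.53, 0.89 and 1.52. Relative to the other members they were thus higher in exosomes. The medium held 10% FCS and the exosomes held blood cell hairpins (3315 to 6926 RPM). An insert that matches the mouse gene could also match the same snoRNA of another mammal, and this was not tested.

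**Figure D3:**
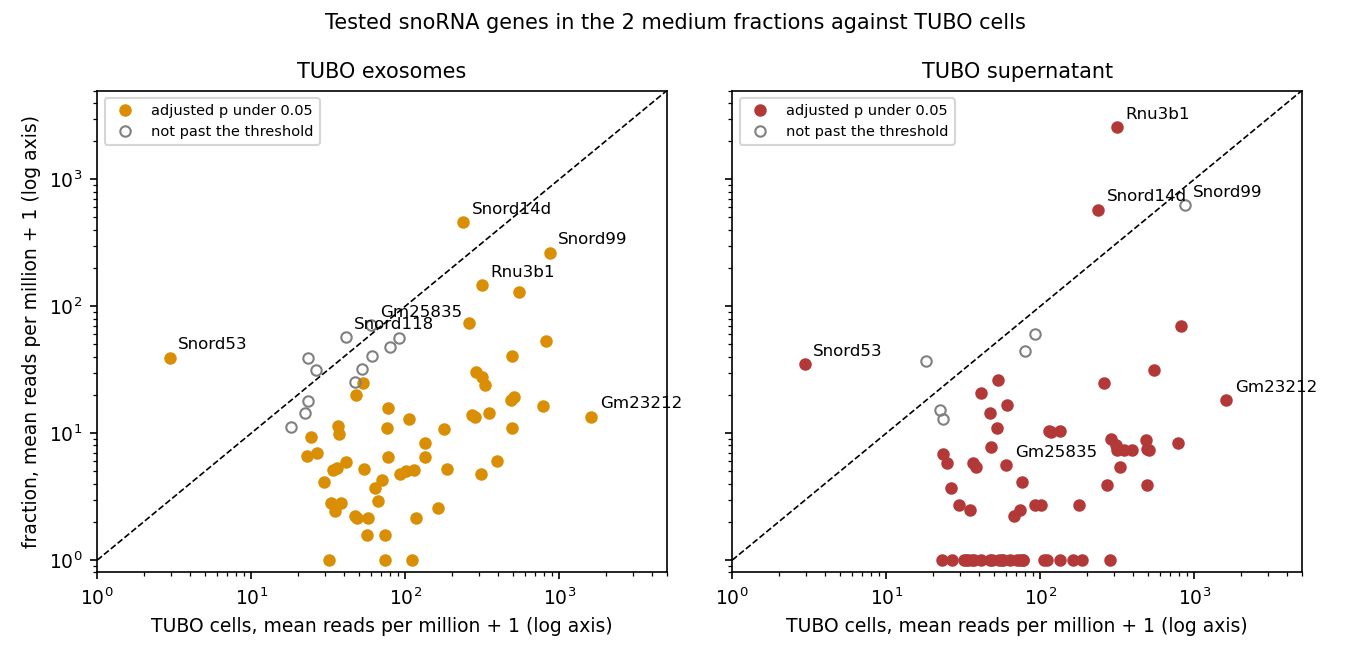
Mean RPM plus 1 (log axes) of the tested snoRNA genes in TUBO cells against exosomes and against supernatant, 1 point a gene, with the line of equal values; filled points passed the test. Most points lie far below the line, and the filled points above it are Snord14d and Snord53 in both panels and U3 (Rnu3b1) in the supernatant panel.

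The supernatant left after exosome isolation held few snoRNA genes besides U3, Snord99 and Snord14d. Against TUBO cells 66 of 72 members passed (edgeR quasi-likelihood, Benjamini-Hochberg), 3 rising and 63 falling, against 77.3% of all 352 features, of which 58.8% fell and 18.5% rose. The libraries of cells and supernatant did not overlap in 66 of the 72 members and in 79.0% of all features. The median log2 difference was −5.80 over the members and −2.01 over all features, and −4.39 and −0.60 with TMM scaling. Here 52 of the 72 members and 91 of the 352 features entered the test through TUBO cells alone, so these too are a description, and of the 20 other members 3 rose and 12 fell. The rises were U3, Snord14d and Snord53. U3 was at 2329, 4287 and 1053 RPM in supernatant against 292 to 349 RPM in cells (log2 3.01 ± 0.40, SE, edgeR adjusted p = 4.1e-06). It made up 59.5%, 62.3% and 41.0% of the member reads of the 3 libraries. The libraries varied widely among themselves, and each was above every cell library. Without supernatant replicate 2 the log2 difference was 2.42.

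Snord14d was at 434, 846 and 442 RPM in supernatant (log2 1.27 ± 0.29 against cells, SE, edgeR adjusted p = 0.00094) and Snord53 at 39.5, 51 and 11 RPM (22 reads, log2 3.77 ± 0.73, edgeR adjusted p = 0.00019). Snord99 was at 425, 734 and 716 RPM, which overlapped the cells (log2 −0.47, edgeR adjusted p = 0.24). Apart from these genes little was left. Gm23212 was at 8.77, 35.7 and 7.31 RPM (log2 −6.63, and −7.61 without supernatant replicate 2). Gm24453, Gm22455, Snord78 and Gm25878 had no read, which places them at least 65.7-fold, 43.7-fold, 37.5-fold and 31.1-fold lower than in cells. Without U3 the members summed to 13735 RPM for TUBO cells, 2145 ± 324 for exosomes and 1902 ± 606 for supernatant, and without U3, Snord99 and Snord14d to 12632, 1426 ± 257 and 702 ± 331 (SD, n = 3 each). Reads of at most 20 bases made up 24.5% to 33.8% of all supernatant reads against 9.82% to 10.4% in TUBO cells, and their part in these values was not tested.

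Exosomes against supernatant compares both fractions of the same medium, with exosome libraries shared with the comparison above. Of 72 members 23 passed (edgeR quasi-likelihood, Benjamini-Hochberg), 21 higher in exosomes and 2 lower, against 62.8% of all features, of which 49.4% rose and 13.4% fell. The medians, 1.56 over the members and 1.55 over all features, were alike, and TMM scaling took the latter to 0.66 and left 6 members higher and 6 lower, RLE 9 and 6. The direction of the sum of calls is thus set by the scaling. The genes lower in exosomes were U3 (log2 −4.14 ± 0.42, SE, edgeR adjusted p = 4.8e-07, and log2 −3.54 without supernatant replicate 2) and Snord99 (log2 −1.25 ± 0.37, edgeR adjusted p = 0.0077). Snord57 was higher in exosomes, at 110, 140 and 136 RPM against 26.3, 51.0 and 14.6 RPM (log2 2.12 ± 0.39, edgeR adjusted p = 0.00023). Gm25835 was at 59.97, 88.7 and 60.2 RPM against 3 reads in the supernatant libraries, 15.9 times higher (95% counting interval 5.28 to 78.2). Gm22489 in Gas5 (30.5 and 2.68 RPM), Gm23130 (38.2 and 5.85 RPM) and Snord50b in Snhg5 (23.1 and 4.38 RPM) rested on 2 to 4 supernatant reads each, and their calls were lost with DESeq2. The first 2 of them entered the test through the exosome libraries alone. Snord14d overlapped (log2 −0.33, edgeR adjusted p = 0.32).

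Lists of genes by role give the counts behind these examples. Of 9 genes for cleavage and processing of the ribosomal RNA precursor (U3, U14, U8, Snord22 and others) 4 could be tested: all 4 fell in MM3MG-Her2 against MM3MG (U3 with the scaling limit given above) and 3 fell in TUBO cells, where 51.2% and 46.6% of all features fell. Their sum was 1191 ± 44.8 RPM in MM3MG, 770 ± 78.2 in MM3MG-Her2 and 739 ± 34.3 in TUBO cells. In exosomes their sum, 680 ± 21.6 RPM, was near that of TUBO cells, with 1 rise and 2 falls, and in supernatant it was 3160 ± 1866 RPM, with 2 rises and 2 falls. A list of 7 snoRNAs in use as reference RNAs of small RNA qPCR, with Snord95, Snord96a and Snord68 among them, summed to 2004 ± 146 RPM in MM3MG, 787 ± 120 for MM3MG-Her2, 989 ± 79.96 for TUBO cells, 119 ± 20.2 for exosomes and 128 ± 60.9 for supernatant (SD, n = 3 each). In the cell groups Snord95 alone made up most of this sum. Of 5 tested, 3 fell in MM3MG-Her2, near the 51.2% of all features, and all 5 in TUBO cells against MM3MG (46.6% of all features). Of 4 tested against TUBO cells 3 fell in exosomes (43.5% of all features) and 3 in supernatant (58.8%), with the limit on entry to the test given above. The 4 genes of the Rpl13a host (Snord32a, Snord33, Snord34 and Snord35a) summed to 1093 ± 111, 773 ± 102 and 940 ± 185 RPM in the 3 cell groups. Of 3 tested, 1 fell in MM3MG-Her2 and 1 in TUBO cells (51.2% and 46.6% of all features). The sum was 19.9 ± 8.59 RPM in exosomes and 9.25 ± 8.81 in supernatant, where all 3 fell (43.5% and 58.8% of all features). It reached at most 25.7 RPM in an exosome library and 17.5 RPM in a supernatant library. The 3 genes thus needed TUBO cells to enter the test and could hardly be called but as falls.

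Of 77 Snord genes 48 were tested in the cell libraries: 1 rose and 29 fell in MM3MG-Her2, 1 rose and 33 fell in TUBO cells, both against MM3MG, next to falls in 51.2% and 46.6% of all features. Of 37 tested against TUBO cells 2 rose and 31 fell in exosomes, and 2 rose and 32 fell in supernatant, next to 43.5% and 58.8% of all features and with the limit on entry to the test given above. Of 37 Snora genes 7 were tested, with 3 falls in each line against MM3MG and no rise, where 51.2% and 46.6% of all features fell. Snora41 entered the test through MM3MG alone in both comparisons, and Snora9 in that of TUBO cells. Several Snord genes, Snord71 and Snord87 among them, did so in both. Such genes could hardly be called but as falls. A list of 7 snoRNA genes, chosen by symbol as imprinted on chromosomes 12 and 7 or by AF357 names, had no gene with enough reads for a test. AF357399, on the list by its name, lies inside a ribosomal protein gene. The list summed to 39.98 ± 10.1 RPM in MM3MG, 3.63 in MM3MG-Her2 and 1.92 in TUBO cells.

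Summed over the Snord genes, the reads of exosomes started near the 5′ end more often than those of cells. Of the reads of Snord genes, 26.8%, 19.3% and 16.7% in MM3MG, 28.8%, 22.2% and 28.7% in MM3MG-Her2 and 19.2%, 23.3% and 21.7% in TUBO cells started in the first 10 bases of the gene. In exosomes 61.6%, 59.8% and 56.5% started there, and in supernatant 50%, 53.3% and 41.6%. All extracellular libraries lay above all cell libraries, and the 5 groups differed (exact permutation of the Kruskal-Wallis statistic, two-sided p = 0.000449, adjusted 0.000785). Snord14d carried much of this. Its reads started in the first 10 bases in 14.4%, 21.8% and 20% of cases in TUBO cells and in 98.4%, 99.5% and 98.2% in exosomes. Without Snord14d the share was 21.5% ± 1.98 for TUBO cells, 41.3% ± 2.18 for exosomes and 21.3% ± 7.001 for supernatant (SD, n = 3 each), so exosomes stayed above the cells and supernatant did not. The place of the supernatant also depends on which genes are counted. Over C/D genes by name or boxes MM3MG-Her2 was at 39.0% to 44.1% and supernatant at 41.4% to 51.4%, which overlap, with exosomes above both (56.2% to 59.3%). Over all members, U3 included, supernatant was at 19.4% to 23.3%, below TUBO cells (27.4% to 30.2%) and MM3MG-Her2 (36.6% to 41.5%), and exosomes at 49.8% to 52.7% were above all cell libraries.

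**Figure D4:**
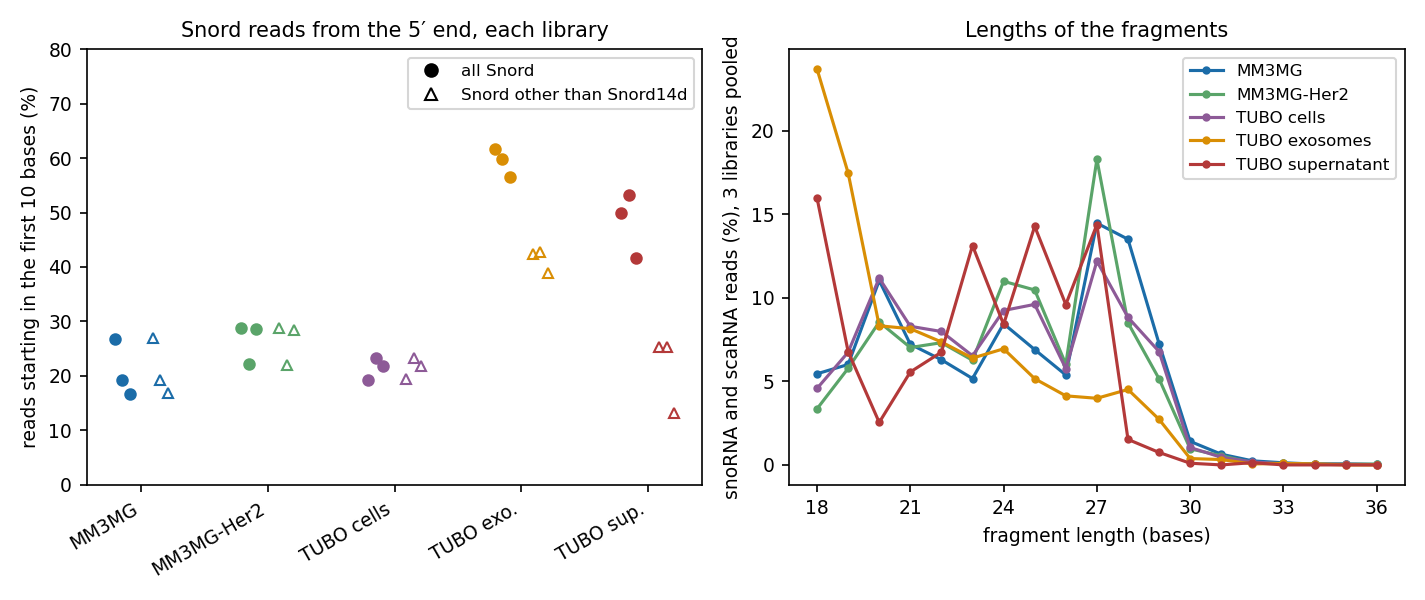
Left, share (%) of the reads of Snord genes that start in the first 10 bases of the gene, for each library, with and without Snord14d; right, length of snoRNA and scaRNA fragments (bases) as % of the member reads, pooled over the 3 libraries of a group. With Snord14d all 6 extracellular libraries lie above the 9 cell libraries, and exosomes have the largest share of reads at 18 and at 19 bases.

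Gene by gene, 30 genes had at least 20 reads in both TUBO cells and exosomes. The share of reads from the 5′ end was higher in exosomes in 19 and lower in 9 of them, with a median difference of 2.47 points. Snord57, Snord69 and Snord83b had 93.2%, 98.0% and 93.3% of their reads from the 5′ end already in TUBO cells. A share pooled over genes thus also follows which genes hold the reads, and that part was not tested. The leading fragment began at the same base in 13 of the 30 genes. It began more than 10 bases away in 9. In Snord14d, Snord96a, Snord82 and Gm25835 it moved to the 5′ end in exosomes. Snord45c went the other way, from bases 1 to 31 in cells to bases 62 to 79 in exosomes, and from 41.6% to 6.90% of reads from the 5′ end. In Gm23130 the leading fragment moved from bases 54 to 71 to bases 19 to 39. Its share of reads from the 5′ end nonetheless went from 60.5% to 12.1%. The rest were U3, Gm22192 and Gm22489. Snord96a, in Rack1, had 5.88%, 6.82% and 3.33% of its reads from the 5′ end in TUBO cells and 84.6%, 69.0% and 100% in exosomes, while its level did not pass the test. Snord57 kept its start: in cells the leading fragment was bases 1 to 29 and in exosomes bases 1 to 19, so the fragment was shorter at its 3′ end. Between the cell lines leading fragments were mostly shared, with the same start in 68 of 90 genes for MM3MG-Her2 and MM3MG and in 69 of 93 for TUBO cells and MM3MG.

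In U3 the leading fragment lay at the 3′ end outside the cells, at bases 198 to 215 in exosomes against bases 76 to 96 in TUBO cells, and the share of reads ending there was highest in supernatant. In that fraction 91.1%, 91.6% and 81.6% of the U3 reads ended in the last 10 bases of the gene, against 33.0%, 34.2% and 31.9% in TUBO cells and 34.1%, 37.9% and 62.0% in exosomes. All supernatant libraries were above all others. The leading fragment, bases 189 to 215 as printed above, held 375 of 1660 U3 reads in supernatant (22.6%).

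**Figure D5:**
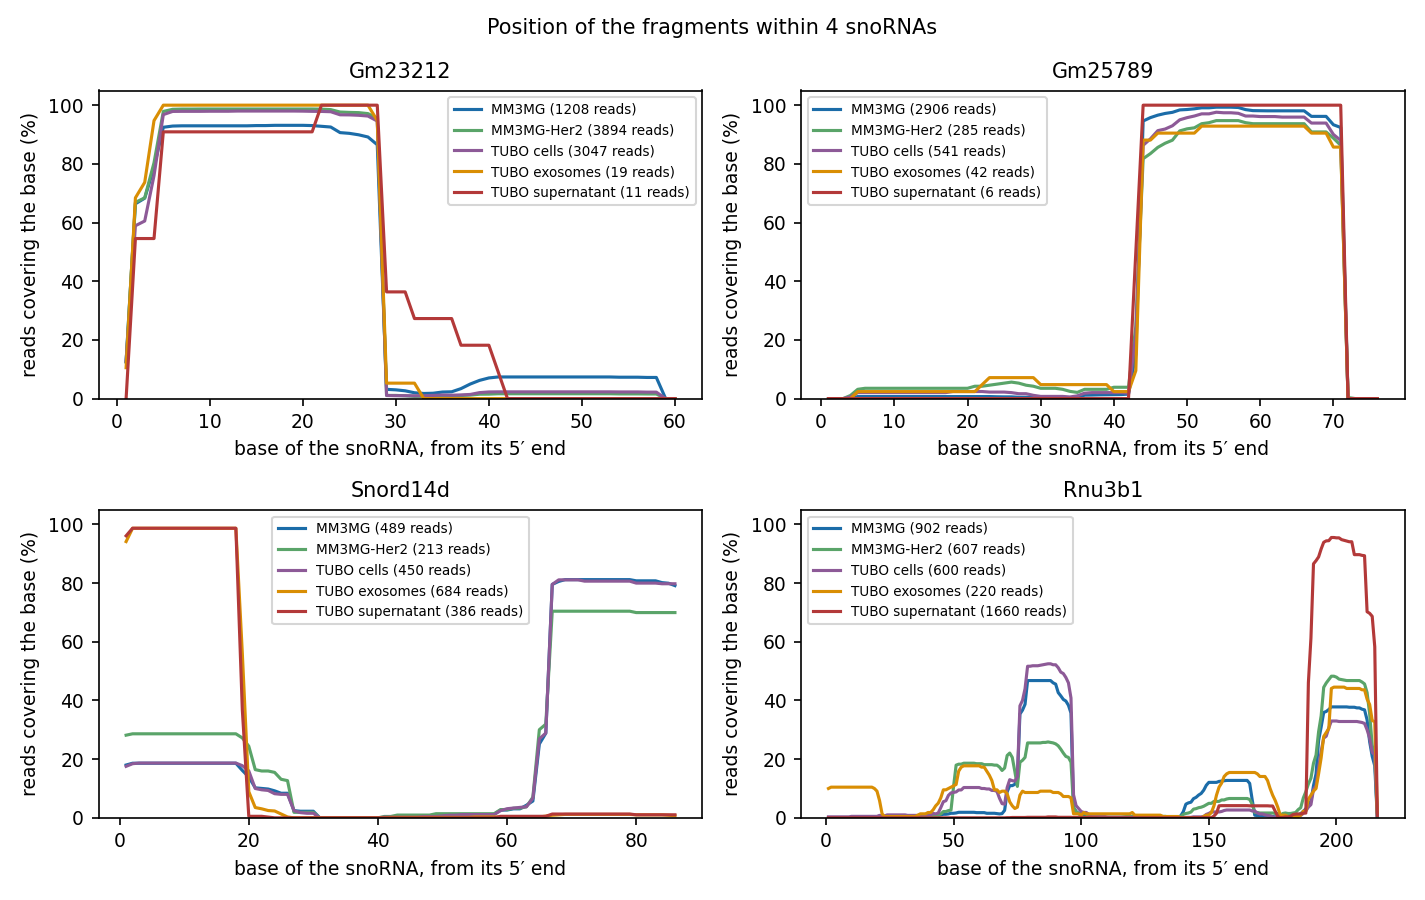
Share (%) of a gene's reads that cover each base, by position from the first base of the gene, for 4 snoRNA genes in the 5 groups (reads of 3 libraries pooled). Gm23212 and Gm25789 keep their place in all groups, whereas Snord14d is covered mostly at its 3′ end in cells and at its 5′ end in exosomes and supernatant, and U3 (Rnu3b1) at its 3′ end in supernatant.

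Long fragments were also a smaller part of the member reads outside the cells. Reads of 27 or more bases made up 37.2% ± 8.69 of the member reads in MM3MG, 34.4% for MM3MG-Her2, 30.1% for TUBO cells, 12.3% ± 5.95 for exosomes and 16.1% ± 6.21 for supernatant (exact permutation over the 5 groups, adjusted p = 0.00394). Every extracellular library was below every cell library. Reads of 18 to 20 bases made up 22.5% for TUBO cells, 49.5% for exosomes and 25.4% for supernatant. The median length was 24 bases in the libraries of TUBO cells, 20 to 21 in exosomes and 23 to 24 in supernatant, so the supernatant median was close to that of cells. Among all reads of a library, not only members, those of at most 20 bases made up 9.82% to 10.4% in TUBO cells and 14.2% to 18.3% in exosomes, and the part of that difference in the member lengths was not tested. For Snora genes the share of reads ending in the last 10 bases did not differ over the groups (exact permutation p = 0.834), and replicate 1 of MM3MG, with its Snora62 reads, was at 25.1% against 73.2% and 77.9% in the other two.

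The same can be read from the letters of the boxes. GATGA, the core of the C box, was searched in the reads of C/D genes by name or boxes. It was inside 31.7% of the reads of TUBO cells and 62.7% of those of exosomes. Windows of the same length placed anywhere in those genes would hold it in 23.2% and 23.5%. The values were 29.2% in MM3MG (windows 27.9%), 42.4% in MM3MG-Her2 (24.1%) and 49.5% in supernatant (31.9%). Snord14d, whose leading fragment in exosomes holds GATGA, was not left out here. CTGA, the letters of the D box and of similar inner boxes, was inside 86.8% of the reads of TUBO cells (windows 51.7%), 43.1% in exosomes (32.8%) and 53.1% in supernatant (24.7%). Both motifs were searched on the sense strand of the insert. The run CTGATGA would hold both.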

How the data were processed

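Small RNA was sequenced from 15 libraries, 3 in each of 5 groups. Per the labels' protocols, adapters were ligated to TRIzol RNA, cDNA was amplified by PCR and bands of miRNA inserts were cut from a gel. The authors deposited 1 table per library of insert sequences and their raw read counts, with no genes. Which trimming tools they used is not stated in the labels. Inserts were matched here over their full length, with no mismatch, to GENCODE M21 transcripts (GRCm38) and 1005 RefSeq hairpins; 179595 reads with an uncalled base could not match. Genes that shared at least 50% of their reads were joined, and 62 member reads were left without a gene. Members and lists were chosen with earlier results of these data known.

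Counts of all features were tested with edgeR 4.0.16 (robust quasi-likelihood, R 4.3.3, limma 3.58.1), with all reads of a library as its size, no scaling, filterByExpr, and Benjamini-Hochberg adjustment at 0.05. The 9 cell libraries entered 1 fit and the 9 TUBO libraries another. Shares were compared by exact permutation tests (scipy 1.17.1). A group at 0 was given a floor of 3 reads over the group, and ratios on 1 to 3 reads a 95% exact counting interval. Alternatives were TMM and RLE scaling, DESeq2 1.42.0, no filter, a replicate block, inserts in no other transcript, distinct sequences, and leaving out each library. Shares were also taken of the reads that match an annotated transcript. Alternatives added after seeing the data were the member reads as library size, inserts of at least 20 bases, members without U3, Snord without Snord14, and class by boxes. The matching was repeated by plain substring search on a random sample of the inserts in the data, and edgeR was tested on simulated counts.

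Genes were named by rule: the 12 with the highest mean level, in each comparison up to 8 rises and 8 falls by fold among those past the threshold, at 20 RPM or more and without overlap, and members of fixed lists. One gene named by the rule is not reported here. The lists of Gas5 and Snhg1 by symbol matched 3 and 1 genes, so lists by position inside the host were added after seeing the data. Snora62, Snord96a ends and the chromosome 12 cluster were chosen after their values were seen. Replicate numbers did not pair the libraries.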

Additional observations from a re-analysis of the deposited data

How the results depend on the processing

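Every direction of a named gene held under leaving out each library, TMM scaling, no filter and the replicate block, and with inserts found in no other transcript for the 30 of 111 named calls that could be made; the exceptions under other settings follow. DESeq2 and RLE scaling turned U3 in MM3MG-Her2 against MM3MG to 0.11 and 0.22. Member reads as library size turned it to 0.47, Snord14d and Snord57 in TUBO cells against MM3MG to 0.42 and 0.028, and U3, Snord57 and Snord99 in exosomes against TUBO cells to 1.52, 0.53 and 0.89, which asks for change relative to the other members. Of these calls, DESeq2 lost 20, RLE 14, TMM 12 and no filter 13. The share ratio of TUBO cells to MM3MG-Her2 turned to 1.09 with distinct sequences and ranged from 0.943 to 1.02 without single libraries. That of exosomes to supernatant turned to 1.79 with distinct sequences and 1.13 without U3. In the order of the report, the counts of genes past the threshold (63, 71, 32, 60, 66 and 23) were 28, 36, 9, 23, 26 and 7 with inserts in no other transcript, where only 49 and 29 genes could be tested. DESeq2 gave 28, 44 and 17 in the cell comparisons and 11 for exosomes against supernatant, where TMM gave 12, RLE 15 and no filter 11; no filter gave 21 for TUBO cells against MM3MG-Her2. Member reads as library size gave 36, 42, 30 and 27 for MM3MG-Her2 and TUBO cells against MM3MG and for exosomes and supernatant against TUBO cells. Leaving out single libraries gave 53 to 65, 62 to 78, 24 to 34, 57 to 70, 62 to 75 and 17 to 26. Same-numbered libraries did not deviate together (correlations −0.133 to 0.255, in no comparison all above 0.1), and a replicate block gave 61, 74, 33, 60, 64 and 20 calls and lost 1 named call, U3 in MM3MG-Her2 against MM3MG. The supernatant, with 703 to 1351 member reads a library, limits what can be seen of single genes there: a gene at 0 can lie anywhere under the floor of 3 reads. Fragments that overhang an annotated end were not matched. The cause of these changes was not tested.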
